A study of Mus musculus with 13 samples.

Results

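RNA precipitated with J2 from 5-AZA-CdR-treated Yumm1.7 cells was compared with RNA precipitated with J2 from DMSO-treated cells. The comparison rests on 2 of the 13 libraries of the series, 1 for each treatment, chosen by their labels. Yumm1.7 is a mouse melanoma cell line, labelled wild type in every library. The compared libraries came from cells given 5-AZA-CdR at 1 µM for 72 h and from cells given DMSO, for a time the labels do not give. The same contrast in total RNA (5-AZA-CdR and DMSO, 1 library each) was set beside it to show abundance. A J2 pair that shares no library with it, the combination of 5-AZA-CdR with ADAR1i-124 against ADAR1i-124 alone (10 µM for 12 h), and an IgG precipitation served as further reference. The labels give neither the treatment of the IgG cells nor the ADAR1i-124 dose of the combination. With 1 library per condition, no difference below has a replicate check, and no test was run.

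J2 is a monoclonal antibody that binds double-stranded RNA through the shape of its helix, largely without regard to sequence. The RNA had been digested with RNase I, an enzyme that degrades single-stranded RNA, and with DNase before the antibody was added. 5-AZA-CdR is a cytidine analog that is built into DNA and traps DNA methyltransferases, so that methylation is lost as cells divide. DNA methylation holds down transposons, tandem repeats of the pericentromere, germline genes and 1 of the parental copies of imprinted genes. Double-stranded RNA from such sequences can be bound by cytosolic sensors such as MDA5 (Ifih1) and ZBP1, and is edited by ADAR1 (Adar). The comparison asked which transcripts J2 recovered in a different amount after 5-AZA-CdR, and whether total RNA showed the same difference.

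The deposited values are counts of reads per gene. They summed to 12183560 in the J2 library of DMSO and to 13297822 in that of 5-AZA-CdR, and to 17015425 and 34571822 in the matching total RNA libraries. Counts were scaled to counts per 1000000 (CPM), and a change is the difference of log2(CPM + 0.5), 5-AZA-CdR minus DMSO, which understates the change of low genes. Of 54532 genes in the table, 14007 averaged 1 CPM or more in the J2 pair, and 13511 of these also passed that minimum in total RNA. A count of 3, taken as the floor of detection, was 0.246 CPM with DMSO and 0.226 CPM with 5-AZA-CdR. Intervals and floors reflect counting alone, since PCR copies without molecular identifiers do not stand for separate molecules. Fewer cells, less RNA per cell and a different share of other RNAs cannot be told apart in CPM.

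The J2 library of DMSO stood apart from total RNA of DMSO, J2 of ADAR1i-124 and IgG in several groups of genes. All 25 of the 25 mitosis and G2/M genes listed were lower in it than in total RNA of DMSO, than in J2 of ADAR1i-124 and than in IgG. Their median log2(CPM + 0.5) was 4.84 in J2 of DMSO, 7.20 in total RNA of DMSO, 7.27 in J2 of ADAR1i-124 and 7.12 in IgG. It was 5.27 in J2 of 5-AZA-CdR and 4.14 in total RNA of 5-AZA-CdR. Collagens and single genes such as Crabp1 and Bgn showed another order, as given with the genes that were lower. The median log2(CPM + 0.5) of the 5 Y-linked genes that passed was 3.93 in J2 of DMSO, 0.93 in total RNA of DMSO, 0.42 in J2 of ADAR1i-124 and 2.12 in IgG. The Z22 library of DMSO was near J2 of DMSO in these groups, with medians of 4.78 for mitosis genes and 3.15 for Y-linked genes, and for collagens of 5.93 against 5.66 in J2 and 3.89 in total RNA of DMSO. The authors describe dividing harvested RNA into a part for precipitation and an input part, but not whether the total RNA libraries are that input. Whether the J2 and total RNA libraries of a treatment came from the same culture is not stated, so a J2 change set against a total RNA change cannot be told apart from a difference between cultures. Their part in the results below was not tested, and the main gene groups are therefore also given for the pair with ADAR1i-124 present, for IgG in place of DMSO, or for both. Of the 7 defining melanocyte markers, Tyr and Tyrp1 had 0 counts in both J2 libraries, as did Sox10 and Dct, Mlana had at most 0.0752 CPM and Pmel at most 0.376 CPM, while Mitf had 19.5 and 26.5 CPM.

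In J2, 423 genes were at least 4-fold higher with 5-AZA-CdR (3.02% of the 14007) and 136 were at least 4-fold lower (0.971%). At least 2-fold, 1206 genes were higher (8.61%) and 841 lower (6%). In total RNA the same 14007 genes gave 722 at least 4-fold higher (5.15%) and 250 lower (1.78%), and at 2-fold 2237 (16%) and 1251 (8.93%). With ADAR1i-124 present, J2 gave 744 of 13971 genes at least 4-fold higher (5.33%) and 116 lower (0.83%), and over the same 14007 genes 720 (5.14%) and 112 (0.8%). The median change over all genes was 0.06 in J2 and 0.05 in total RNA, on a scale that fixes the sum of each library. Of the 423 higher genes, 297 had less than 1 CPM in the J2 library of DMSO and 111 had no count there at all. Of the 136 lower genes, 65 had less than 1 CPM in the J2 library of 5-AZA-CdR. These genes passed the minimum only through the library in which they were high.

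The genes that were higher in J2 and those that were lower stood differently in the other libraries. Of the 423 higher genes, 220 were also at least 4-fold higher in total RNA (52% against 5.15% of all genes) and 0 were at least 4-fold lower. Their median change was 2.796 in J2, 2.10 in total RNA and 2.65 in J2 with ADAR1i-124 present. In 408 of the 423 (96.5%), the combination library had more CPM than both the ADAR1i-124 library and IgG, which held for 47.3% of all genes. Of the 136 lower genes, 46 were at least 4-fold higher in total RNA (33.8%) and 12 at least 4-fold lower (8.82%). Their median change was -2.63 in J2, 0.70 in total RNA and 0.42 in J2 with ADAR1i-124 present. In 122 of the 136 (89.7%), J2 of DMSO held more CPM than J2 of ADAR1i-124, J2 of the combination and IgG, against 23.6% of all genes. Since these genes were chosen for a high DMSO value, a high share is built into the choice and nothing is read from it. The higher genes were mostly high again in a J2 pair made from other libraries.

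**Figure D1:**
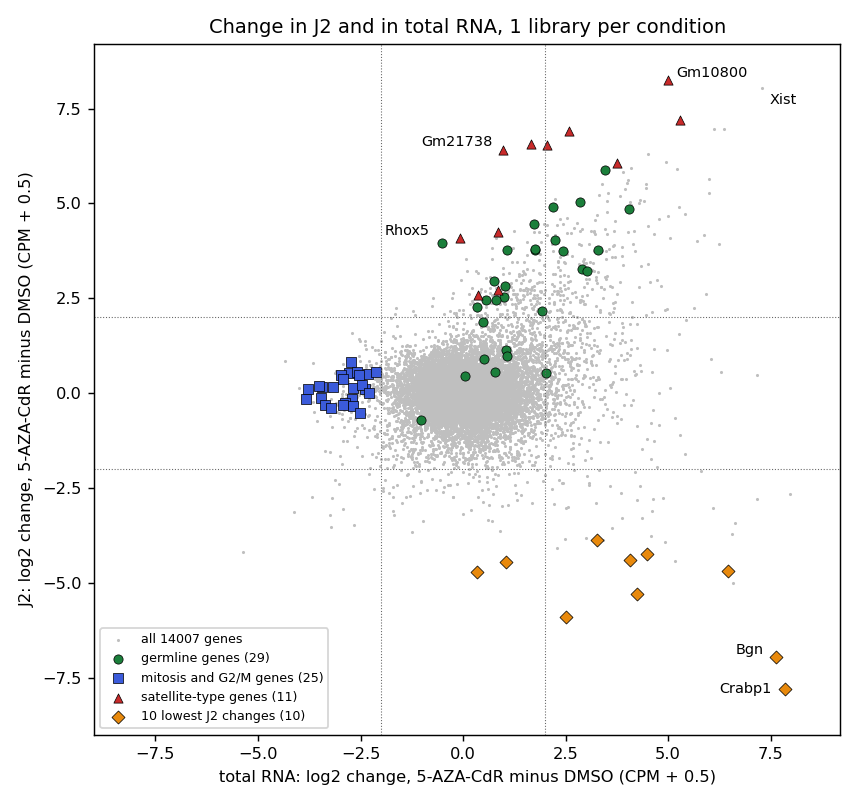
Each point is 1 of 14007 genes, with its log2 change in total RNA (x axis) and in J2 (y axis), 5-AZA-CdR minus DMSO, both on log2(CPM + 0.5); dotted lines mark 4-fold. Of the satellite-type genes past the minimum, all 11 lie above the upper line in J2, as do 21 of the 29 germline genes, beside 3.02% of all genes. Of the 29, 19 passed only through the treated library, as did several of the 11, so nothing is read from these counts. Mitosis genes lie left of the line in total RNA and near 0 in J2, and Crabp1 and Bgn lie at the lower right, at -7.80 and -6.96 in J2.

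The gene furthest above DMSO in J2, Gm10800, belongs to a family of satellite-type repeats. Among the 10 genes with the highest J2 change among those averaging 10 CPM or more, 6 (Gm10800, Gm10801, Gm11168, Gm10718, Gm10722 and Gm21738) were predicted genes whose transcripts share sequence with each other. To find all such genes, every GENCODE transcript was searched for 16-base words of Gm10800 on both strands, a rule made after these values were seen. In all, 13 genes shared at least 10% of their words, from 16.4% to 100%, and the next gene shared 0.504%. Their transcripts match themselves best at a shift of 225 to 237 bases. Gm26870 does so at 81.5% of positions when shifted by 234 bases, and the others at 52.75% (Gm10801) to 67.59% (Gm10721). A tandem array with a unit of this length, rich in A and T, is the known form of the mouse major satellite, which fills the pericentromeric heterochromatin and is methylated at its CG sites. The start of 3 of the transcripts is shown, from base 1 to base 234, so that the repeat and its CG sites can be seen; CG is in capitals.
Gm10800: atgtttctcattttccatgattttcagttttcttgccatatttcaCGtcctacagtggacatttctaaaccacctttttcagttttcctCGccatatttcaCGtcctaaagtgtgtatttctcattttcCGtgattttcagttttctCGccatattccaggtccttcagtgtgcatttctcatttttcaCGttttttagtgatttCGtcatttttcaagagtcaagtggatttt
Gm21738: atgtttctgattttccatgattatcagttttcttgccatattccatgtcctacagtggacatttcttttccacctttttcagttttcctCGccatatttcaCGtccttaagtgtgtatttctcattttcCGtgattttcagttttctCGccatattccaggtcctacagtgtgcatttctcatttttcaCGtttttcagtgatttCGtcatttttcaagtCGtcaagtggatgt
Gm26870: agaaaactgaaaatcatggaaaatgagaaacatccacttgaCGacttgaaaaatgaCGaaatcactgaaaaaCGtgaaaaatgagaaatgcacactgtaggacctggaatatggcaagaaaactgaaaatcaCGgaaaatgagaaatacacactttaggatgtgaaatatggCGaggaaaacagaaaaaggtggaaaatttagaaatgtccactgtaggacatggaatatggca
These stretches hold 7 CG in Gm10800 and in Gm21738 and 5 in Gm26870. The words of Gm26870 matched Gm10800 on the other strand only (23.2% of its words, 0 on the same strand), and those of the other 12 genes matched on the same strand only.

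The 13 genes lie at 3 places on GRCm38. Gm10800 (chr2:98666547-98667301, reverse strand) and Gm10801 (chr2:98662237-98664083, forward strand) are neighbors on chromosome 2, and Gm21738 (chr14:19415857-19418930, reverse strand) is on chromosome 14. The other 10 are near the start of chromosome 9, where Gm26870, a long noncoding RNA gene (chr9:3000282-3038313, reverse strand), lies across 9 predicted genes of the forward strand. Reads of near-identical copies, including the arrays that the assembly does not hold, can be split between these genes in ways the counting does not show, so values of single members are uncertain and their sum is given as well. Whether the counting used strand is not stated, so reads from Gm26870 and from the 9 genes under it may not be told apart.

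Summed over the 13 genes, satellite-type RNA took 41.2 CPM in J2 of DMSO and 4967 CPM in J2 of 5-AZA-CdR. That is 120.6-fold more, with a 95% exact counting interval of 110.4 to 131.9. In total RNA the sum was 7.23 CPM with DMSO and 138.5 CPM with 5-AZA-CdR, which is 19.16-fold (16.02 to 23.1). The fold in J2 was thus the larger in these libraries; the intervals leave out variation between libraries, and the family was found through the genes with the highest J2 change. In the pair with ADAR1i-124 present, the sum was 59.2 CPM with ADAR1i-124 and 3406 CPM with the combination, 57.6-fold (53.8 to 61.7). IgG held 7.24 CPM, as little as total RNA of DMSO. With Z22, an antibody against the left-handed Z form of double-stranded RNA, the sum was 15.1 CPM with DMSO and 315.8 CPM with 5-AZA-CdR, 20.9-fold (17.5 to 25.1). Satellite-type RNA was therefore 0.497% of all counts in the J2 library of 5-AZA-CdR and 0.00412% in that of DMSO.

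Of the 13 genes, 11 passed the minimum. These 11 were at least 4-fold higher in J2 and 5 of them also in total RNA, beside 3.02% and 5.15% of all genes. The family was found through the highest of them. Gm10801, Gm10717, Gm10718, Gm10719, Gm10721, Gm10722 and Gm17535 passed only through the treated library, so nothing is read from the first count. Gm10720 and Gm10715 did not pass and had 0.902 and 1.65 CPM with 5-AZA-CdR against 0.0821 CPM each with DMSO, which is 1 count. Gm10800 had 6.73 CPM with DMSO and 2183 CPM with 5-AZA-CdR in J2, 1.998 and 78.6 CPM in total RNA, 7.09 CPM with ADAR1i-124, 1082 CPM with the combination and 1.44 CPM in IgG. Its change was 8.24 in J2 and 4.99 in total RNA. It had 27.8 times more CPM in J2 than in total RNA after 5-AZA-CdR, and 3.37 times more with DMSO. Gm26870, on the opposite strand, had 29.4 CPM with DMSO and 1987 CPM with 5-AZA-CdR in J2, and 0.529 and 13.3 CPM in total RNA. Its change was 6.06 in J2 and 3.75 in total RNA, and its J2 level already exceeded total RNA 55.6 times with DMSO. The 9 genes annotated on the forward strand of the chromosome 9 array summed to 2.54 CPM with DMSO and 408.2 CPM with 5-AZA-CdR in J2.

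Gm21738 separated J2 from abundance most. It had 1.64 CPM with DMSO and 182 CPM with 5-AZA-CdR in J2, while total RNA held 3.41 and 7.17 CPM. Its J2 change exceeded its total RNA change by 5.44 on the log2 scale, the highest among genes averaging 10 CPM or more in J2 and 1 CPM or more in total RNA. Gm10718 and Gm10722 followed with 4.89 and 4.50. Both had only 2 counts in J2 of DMSO (0.164 CPM), and 61.9 and 61.4 CPM with 5-AZA-CdR. Gm11168 had 1.64 and 255.3 CPM in J2 and 0.588 and 5.99 CPM in total RNA. On the log2(CPM + 0.5) scale, the J2 change was above the total RNA change in each of the 13 genes, some of which had no count with DMSO.

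**Figure D2:**
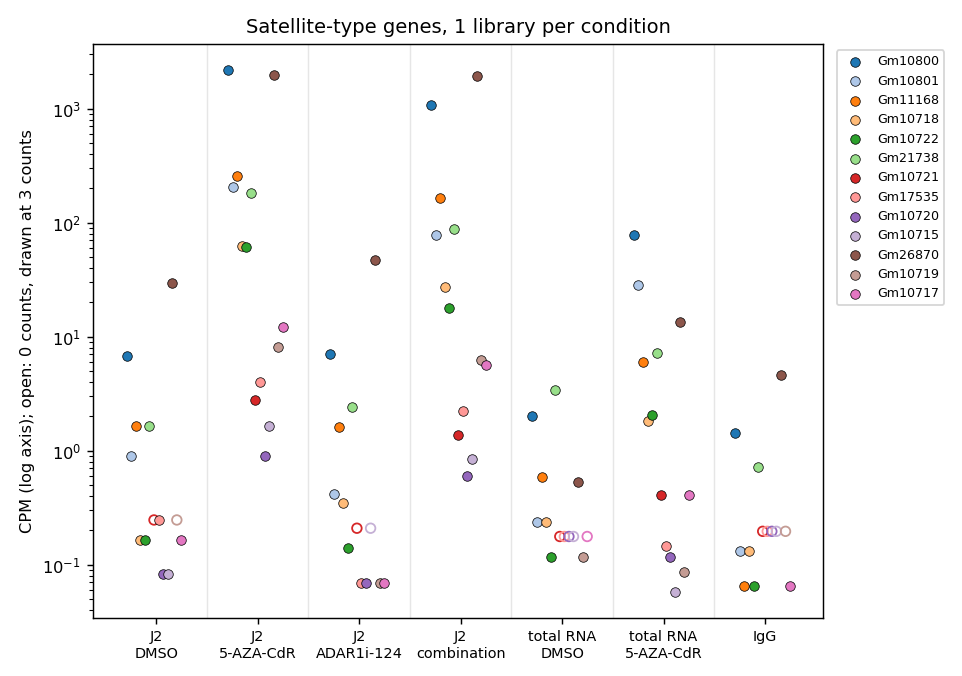
CPM (log axis) of the 13 satellite-type genes in 7 libraries, 1 per condition; open circles mark 0 counts and are drawn at the floor of 3 counts. The J2 libraries of 5-AZA-CdR and of the combination hold the highest values of each of the 13 genes, up to 2183 CPM for Gm10800.

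The other 4 of the 10 highest genes were not satellite-type. Xist, the long noncoding RNA that coats and silences an X chromosome, had 0.492 CPM with DMSO (6 counts) and 258.7 CPM with 5-AZA-CdR in J2. Total RNA held 0.294 and 122.9 CPM, the J2 pair with ADAR1i-124 0.278 and 333.1 CPM, and IgG 1.04 CPM. Its change was 8.03 in J2 and 7.28 in total RNA, with a 95% counting interval of the J2 ratio without pseudocount of 7.91 to 10.48. Xist was thus high in J2 and total RNA of 5-AZA-CdR and in J2 of the combination and at about 1 CPM or less in J2 of ADAR1i-124, IgG and both libraries of DMSO. Without the pseudocount it was 525.3-fold higher in J2 and 418.1-fold in total RNA. Gm15930, a pseudogene on chromosome 7, had 0.575 and 134.2 CPM in J2 and 0.235 and 60.0 CPM in total RNA. Gm14149, a long noncoding RNA gene on chromosome 2, had 1 count with DMSO (0.0821 CPM) and 72.04 CPM with 5-AZA-CdR in J2, and 0 and 34.2 CPM in total RNA. Gm45861, a predicted gene on chromosome 8, had 0 counts with DMSO and 38.7 CPM with 5-AZA-CdR in J2, at least 157.3-fold more against a floor of 3 counts. Without the pseudocount Gm15930 was 233.5-fold higher in J2 and 255.3-fold in total RNA, so its J2 fold did not exceed that of abundance. Total RNA of DMSO had 0 counts of Gm14149 and Gm45861, and no fold in total RNA was calculated for them.

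The promoters of the highest genes with a RefSeq window, 250 bases before to 50 after the start on GRCm38.p6, are shown because 5-AZA-CdR acts on methylated CG sites; CG is in capitals. Of the 10 highest genes, only Xist and Gm14149 have a window in the table.
Xist, chrX:103483184-103483483, reverse strand: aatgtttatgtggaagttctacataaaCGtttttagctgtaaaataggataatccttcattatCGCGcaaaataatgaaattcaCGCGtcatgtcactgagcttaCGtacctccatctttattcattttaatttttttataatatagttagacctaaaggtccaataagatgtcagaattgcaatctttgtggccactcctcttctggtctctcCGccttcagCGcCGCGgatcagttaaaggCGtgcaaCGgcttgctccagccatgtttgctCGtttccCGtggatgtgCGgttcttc
Gm14149, chr2:151204945-151205244, forward strand: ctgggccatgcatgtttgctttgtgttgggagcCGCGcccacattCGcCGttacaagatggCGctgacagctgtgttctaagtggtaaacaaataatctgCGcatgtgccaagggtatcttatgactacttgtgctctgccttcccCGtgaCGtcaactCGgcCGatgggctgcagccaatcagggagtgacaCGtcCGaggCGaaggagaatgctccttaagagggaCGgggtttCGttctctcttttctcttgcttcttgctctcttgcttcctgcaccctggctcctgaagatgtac
Each holds 15 CG in 300 bases. The observed number of CG over that expected from base composition was 1.18 for Xist and 0.694 for Gm14149.

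Germline genes were higher in J2 with 5-AZA-CdR as a group. The list holds genes of meiosis, of the piRNA pathway and of the germ cell X chromosome, and 62 of its 63 members are in the table. Of these 62, 52 had more CPM in J2 with 5-AZA-CdR, 3 had less and 7 had no count in either library. Of the 26240 genes with a count in either J2 library, 53.1% had more CPM with 5-AZA-CdR. The minimum was passed by 29 members, of which 19 had less than 1 CPM with DMSO and so passed only through the treated library. Of the 29, 21 exceeded DMSO 4-fold or more and 0 lay 4-fold below it, beside 3.02% and 0.971% of all genes, and since most passed only through that library, nothing is read from the first count. Their median change was 2.96 in J2 (4.29 on the plain ratio with the 11 genes at 0 counts set at the floor) and 1.07 in total RNA. In the J2 pair with ADAR1i-124 present it was 2.87, and against IgG 3.28. The J2 median rests on the same filtered members and shares that limit. Only 15 of the 29 also passed the minimum in total RNA. Over these 15 the J2 change exceeded the total RNA change by a median of 0.37, with 12 above and 3 below.

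Tex19.1, which restrains transposons in germ cells, had 0 counts with DMSO and 28.8 CPM with 5-AZA-CdR in J2, at least 117-fold more. Total RNA held 0 and 5.00 CPM, and the J2 pair with ADAR1i-124 0 and 18.9 CPM. Dazl, an RNA-binding protein needed for germ cell formation, had 1 count with DMSO and 18.6 CPM with 5-AZA-CdR in J2, and 0 and 3.10 CPM in total RNA. Mov10l1, the helicase that starts piRNA production, had 0 counts and 14.4 CPM in J2, at least 58.3-fold more, and 0 and 1.79 CPM in total RNA. Pet2, on the X chromosome, had 0.328 and 23.5 CPM in J2 and 0 and 7.69 CPM in total RNA. These 4 had no count in total RNA of DMSO and were detected in J2 and total RNA of 5-AZA-CdR and in J2 of the combination.

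Rhox5, a homeobox gene of the reproductive X cluster, was higher in J2 but not in total RNA. In J2 it had 8.29 CPM with DMSO and 136.9 CPM with 5-AZA-CdR, and in total RNA 36.6 and 25.6 CPM. Its change was 3.97 in J2 and -0.50 in total RNA, a difference of 4.47. The J2 value of DMSO was below that of ADAR1i-124 (50.4 CPM) and of IgG (26.9 CPM), and in the pair with ADAR1i-124 present the change was 0.69. Promoter windows of the 2 highest members are shown for the same reason as above.
Tex19.1, chr11:121145893-121146192, forward strand: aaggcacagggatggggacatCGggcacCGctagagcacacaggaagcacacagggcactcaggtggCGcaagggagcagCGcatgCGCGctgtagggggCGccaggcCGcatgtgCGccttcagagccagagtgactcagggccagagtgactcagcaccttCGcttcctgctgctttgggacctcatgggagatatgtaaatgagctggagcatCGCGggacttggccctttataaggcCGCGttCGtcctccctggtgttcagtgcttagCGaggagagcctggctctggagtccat
Dazl, chr17:50293571-50293870, reverse strand: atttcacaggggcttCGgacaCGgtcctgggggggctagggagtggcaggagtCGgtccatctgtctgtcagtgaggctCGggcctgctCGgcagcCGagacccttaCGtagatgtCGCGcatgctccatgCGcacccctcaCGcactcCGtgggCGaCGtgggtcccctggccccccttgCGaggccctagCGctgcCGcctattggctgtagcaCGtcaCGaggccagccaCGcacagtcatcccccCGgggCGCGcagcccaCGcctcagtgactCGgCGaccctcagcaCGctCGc
They hold 16 and 28 CG. Windows of the same size read from the GRCm38 genome at GENCODE gene starts, a choice made after the RefSeq table was found to cover only 62.2% of the 423 higher genes, which voids a check with it, gave a value for 422 of them. The median number of CG was 6 over these, 10 over the 136 lower genes and 17 over all 13989 genes with a window, and the observed over expected CG was 0.334, 0.471 and 0.695. For 28 germline genes the median was 15 CG and 0.6. The median was thus lower in genes higher in J2 than over all genes. It was also lower in genes at least 4-fold higher in total RNA (8 CG over 722 genes). Of the 423 higher genes, 297 had less than 1 CPM with DMSO, and 76.4% were protein-coding against 82.1% of all genes. The sets differ in more than the J2 change, so nothing further is read from the CG numbers.

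Outside the germline list, single genes of other families were far higher. Snhg14, the long host transcript of the imprinted Prader-Willi region that carries small nucleolar RNAs, had 0.328 CPM with DMSO and 24.2 CPM with 5-AZA-CdR in J2, and 0 and 18.7 CPM in total RNA. Its change was 4.90 in J2 and 5.26 in total RNA. Over the 20 imprinted genes that passed, 1 (Snhg14) exceeded DMSO 4-fold and 1 (Grb10, described with the lowest genes) lay 4-fold below it, beside 3.02% and 0.971% of all genes. Snhg14 and Grb10 each passed only through the library in which it was high. The median change of the 20 was -0.19 in J2, 0.43 in total RNA, 0.46 with ADAR1i-124 present and 0.07 against IgG. Krt18, a keratin of simple epithelia, had 0 counts with DMSO and 16.8 CPM with 5-AZA-CdR in J2, at least 68.4-fold more. Its partner Krt8 had 1 count and 13.5 CPM in J2. Total RNA held 0 counts of both with DMSO, and 1.85 CPM of Krt18 and 2.08 CPM of Krt8 with 5-AZA-CdR. Of 16 leukocyte, epithelial and endothelial markers, 4 passed (Krt8, Krt18, Cdh5 and Cd68) and 3 were at least 4-fold higher, beside 3.02% of all genes. Krt8 and Krt18 passed only through the treated library, so nothing is read from that count. Ptprc, Epcam and Cd3e each had 1 count with DMSO and 0 with 5-AZA-CdR, while the epithelial Krt8 and Krt18 are given above and Cd68, a lysosomal protein of macrophages, had 59.6 and 17.8 CPM in J2. The 16 markers summed to 68.9 CPM with DMSO and 110.5 CPM with 5-AZA-CdR in J2, and to 12.6 and 167.3 CPM in total RNA. Cdh5, the cadherin of endothelial junctions, had 8.21 and 60.2 CPM in J2 and 3.70 and 81.1 CPM in total RNA. By annotation, 40 of 275 long intergenic noncoding RNA genes (14.5%) were at least 4-fold higher, and 6 of 43 unprocessed pseudogenes (14%). Among protein-coding genes the count was 323 of 11493 (2.81%).

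**Figure D3:**
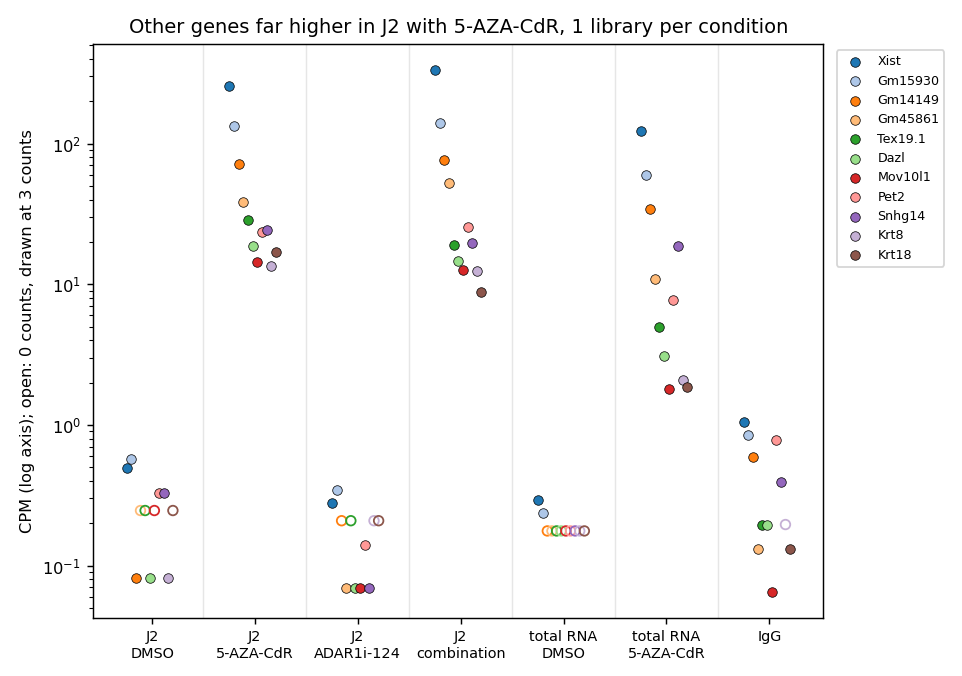
CPM (log axis) of 11 genes far higher in J2 with 5-AZA-CdR that are not satellite-type, in 7 libraries, 1 per condition; open circles mark 0 counts and are drawn at the floor of 3 counts. The J2 libraries of 5-AZA-CdR and of the combination hold from 8.75 to 333.1 CPM of each gene, total RNA of 5-AZA-CdR less, and the remaining libraries about 1 CPM or less.

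Genes for sensing double-stranded RNA were moderately higher in J2. Of 19 sensor and effector genes that passed, 18 lay above 0 and 6 were at least 2-fold higher, with a median of 0.71 in J2 and -0.08 in total RNA. Of all 14007 genes, 7566 lay above 0 and 6441 below, and 8.61% were at least 2-fold higher. The sensor median was 2.43 with ADAR1i-124 present and 1.05 against IgG. Oasl1 and Ripk3 were past 4-fold. Oasl1, an antiviral protein of the oligoadenylate synthetase family, had 39.4 CPM with DMSO and 177.2 CPM with 5-AZA-CdR in J2, but 76.8 and 61.1 CPM in total RNA. Its change was 2.15 in J2 and -0.33 in total RNA. Zbp1, the sensor of Z-RNA, had 45.2 and 130 CPM in J2 and 25.1 and 111.3 CPM in total RNA, a change of 1.51 and 2.13. Ripk3, the kinase of necroptosis, had 1 count with DMSO and 4.14 CPM with 5-AZA-CdR in J2. The change of Ifih1, which encodes MDA5, was 0.76 in J2 and -0.12 in total RNA, and that of Adar 0.53 and -0.23.

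Interferon-stimulated genes gave the same picture. Of 47 that passed, 46 lay above 0 and 15 were at least 2-fold higher in J2, none at least 4-fold, beside 7566 and 1206 of all 14007 genes for the first 2 counts. Their median was 0.73 in J2, -0.13 in total RNA and 1.07 against IgG. Irf7, a transcription factor of the interferon response, had 127 CPM with DMSO and 403.2 CPM with 5-AZA-CdR in J2, and 83.6 and 225.2 CPM in total RNA. Gbp2, an interferon-induced GTPase, had 58.3 and 188.5 CPM in J2 and 72.4 and 118.5 CPM in total RNA. With ADAR1i-124 present the median was 2.76, and there the control library was lower: the median log2(CPM + 0.5) of these genes was 4.38 in J2 of ADAR1i-124, 6.42 in J2 of DMSO and 6.38 in IgG. Of 22 genes of MHC class I presentation, 20 lay above 0 in J2, as did 7566 of all 14007 genes, with a median of 0.66 against 1.47 in total RNA, 2.59 with ADAR1i-124 present and 1.84 against IgG. H2-Q6, a nonclassical class I gene with near-identical relatives, had 28.2 and 107.6 CPM in J2 and 2.70 and 137.5 CPM in total RNA, and its J2 change minus its total RNA change was -3.51.

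Genes of DNA methylation and repeat silencing were mostly within 2-fold in J2. Dnmt1, the maintenance methyltransferase that 5-AZA-CdR traps, had 154 CPM with DMSO and 197.8 CPM with 5-AZA-CdR in J2, and 334.2 and 165.1 CPM in total RNA. Its change was 0.36 in J2 and -1.01 in total RNA. The J2 changes of Dnmt3a and Dnmt3b, the de novo methyltransferases, were -0.26 and -0.32. None of the 16 genes of this list that passed was past 2-fold in J2. Suv39h2, a histone methyltransferase that marks pericentromeric heterochromatin, was the only one of 24 repeat silencing factors at least 2-fold higher, with 1 other at least 2-fold lower. It had 5.34 and 54.1 CPM in J2 and 18.7 and 23.3 CPM in total RNA. Its change was 3.23 in J2, 0.31 in total RNA and 2.004 with ADAR1i-124 present. Of 15 genes related to retroviruses that passed, 3 exceeded DMSO 2-fold or more and 1 lay 2-fold below it, beside 8.61% and 6% of all genes, and of 5 two-cell-stage genes 2 exceeded it 2-fold, with a median of 0.51 in J2, 2.15 with ADAR1i-124 present and 1.10 against IgG.

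The 10 genes furthest below DMSO in J2, among those averaging 10 CPM or more, were all higher in total RNA with 5-AZA-CdR. Their total RNA changes ran from 0.34 (P2rx3) to 7.84 (Crabp1) on the log2 scale. Crabp1, a retinoic acid-binding protein, had 144.6 CPM with DMSO and 0.15 CPM with 5-AZA-CdR in J2 (1762 counts against 2). In total RNA it had 0.353 and 194.5 CPM, the reverse order. Bgn, the small proteoglycan biglycan, had 71.1 and 0.0752 CPM in J2 (866 counts against 1) and 0.646 and 227.5 CPM in total RNA. Their changes were -7.80 and -6.96 in J2 and 7.84 and 7.64 in total RNA. With DMSO, Crabp1 was 410.1 times higher in J2 than in total RNA, and with 5-AZA-CdR it was nearly absent from J2 but not from total RNA. IgG held 29.0 CPM of Crabp1 and 11.03 CPM of Bgn, and in the J2 pair with ADAR1i-124 their changes were 2.60 and 0.96. Z22 showed the same order as J2, with 17.2 and 0 CPM of Crabp1 and 39.1 and 0.49 CPM of Bgn. Their promoter windows are shown beside those of the higher genes.
Crabp1, chr9:54764498-54764797, forward strand: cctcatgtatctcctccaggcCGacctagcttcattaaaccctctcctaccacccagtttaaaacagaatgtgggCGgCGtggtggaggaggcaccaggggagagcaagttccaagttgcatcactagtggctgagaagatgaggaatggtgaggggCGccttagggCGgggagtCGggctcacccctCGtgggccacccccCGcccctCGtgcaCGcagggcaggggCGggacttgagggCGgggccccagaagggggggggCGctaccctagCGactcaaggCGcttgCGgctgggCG
Bgn, chrX:73483351-73483650, forward strand: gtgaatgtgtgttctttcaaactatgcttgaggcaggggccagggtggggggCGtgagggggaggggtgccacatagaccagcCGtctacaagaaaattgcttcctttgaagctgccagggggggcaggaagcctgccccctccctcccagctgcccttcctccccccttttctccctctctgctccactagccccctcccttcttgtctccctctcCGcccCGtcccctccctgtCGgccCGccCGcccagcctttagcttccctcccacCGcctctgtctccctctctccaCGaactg
They hold 17 and 9 CG.

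The other 8 of the 10 lowest genes were Col1a2, Grb10, P2rx3, Rasgrf1, Timp3, Col4a1, Aqp1 and Ddx3y, at -5.91 to -3.86 in J2. Col1a2, a chain of type I collagen, had 363.2 CPM with DMSO and 5.56 CPM with 5-AZA-CdR in J2, and 60.2 and 344.1 CPM in total RNA. Grb10, an imprinted adaptor of growth factor receptors, had 34.1 and 0.376 CPM in J2 and 1.88 and 44.3 CPM in total RNA. Timp3, an inhibitor of matrix metalloproteinases, had 45.1 and 1.58 CPM in J2 and 25.3 and 52.4 CPM in total RNA. P2rx3, an ATP-gated channel, was the member whose total RNA differed least (3.47 and 4.51 CPM). Against IgG, 9 of the 10 stayed below -2, and P2rx3 was at -0.42. With ADAR1i-124 present all 10 lay above 0, from 0.41 to 2.60.

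**Figure D4:**
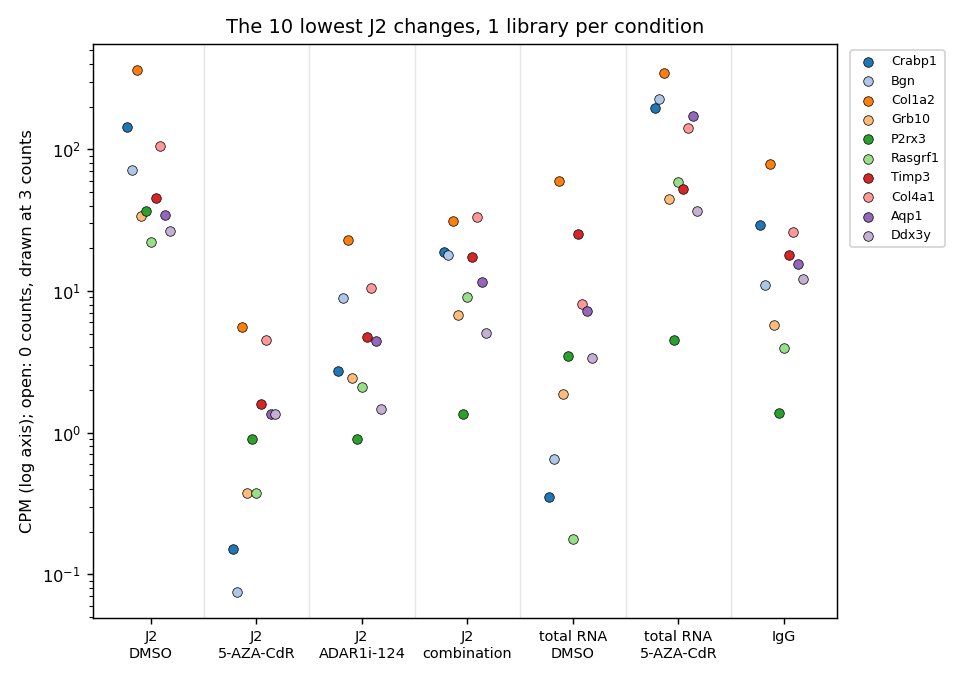
CPM (log axis) of the 10 genes with the lowest J2 change among those averaging 10 CPM or more, in 7 libraries, 1 per condition. For Crabp1, J2 of DMSO and total RNA of 5-AZA-CdR hold 144.6 and 194.5 CPM and J2 of 5-AZA-CdR and total RNA of DMSO under 1 CPM, while P2rx3 is high only in J2 of DMSO, at 36.5 CPM.

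Collagen genes had a lower median in J2 with 5-AZA-CdR and a higher one in total RNA. The list was added after the values of Col1a2 and Col4a1 were seen. Members differed: Col3a1, Col4a5, Col5a2, Col8a1 and Col12a1 were lower in both, and Col5a3, Col6a4 and Col28a1 higher in both. Of 24 collagen chain genes that passed, 11 lay 4-fold or more below DMSO in J2 and 1 (Col28a1, 0 counts with DMSO and 2.18 CPM with 5-AZA-CdR) above it. Col1a2 and Col4a1, which prompted the list, are among the 11. So are Col4a6 and Col6a2, which passed only through the DMSO library. The median change of the 24 was -1.59 in J2 and 1.48 in total RNA, where 9 were at least 4-fold higher and 1 lower. Over all genes 0.971% were that far below and 3.02% that far above DMSO in J2, and 1.78% and 5.15% in total RNA. Against IgG the median was 0.46. The J2 change was below the total RNA change in all 22 that passed both minima. With ADAR1i-124 present it was 1.06. Col6a3 had 347.9 and 24.4 CPM in J2 and 89.8 and 714.4 CPM in total RNA, and its change was -1.62 against IgG. Col3a1, by contrast, had 1150 and 187.5 CPM in J2 and 1213 and 858.6 CPM in total RNA. Of 13 melanoma dedifferentiation genes, Aqp1, Tgfbi and Wnt5a were at least 4-fold lower in J2 and higher in total RNA, while Cd44, a hyaluronan receptor, was at 1.02 in J2 and 0.51 in total RNA. The median of the 13 was -0.04 in J2, with 6 above 0 and 7 below. It was 1.725 in total RNA and 0.45 with ADAR1i-124 present. Ddx3y, a Y-linked helicase, had 26.3 and 1.35 CPM in J2 and 3.35 and 36.7 CPM in total RNA. Of the 5 Y-linked genes that passed, a list added after values were seen, 4 lay 4-fold or more below DMSO in J2, and all 5 were at least 4-fold higher in total RNA, beside 0.971% and 5.15% of all genes. Ddx3y, which prompted the list, is 1 of the 4, and Kdm5d and Uba1y passed only through the DMSO library, so nothing is read from the J2 count. Kdm5d, Uty and Uba1y were at -3.87, -3.29 and -2.82 in J2, while Gm47283 was at -0.36. The median of the 5 was -3.29 in J2, 3.42 in total RNA, 1.49 with ADAR1i-124 present and -2.08 against IgG.

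Subtracting the total RNA change from the J2 change left 399 genes at least 4-fold above (2.95% of 13511) and 617 at least 4-fold below (4.57%). The 5 highest were Gm21738, Gm10718, Gm10722, Rhox5 and Gm15564, and the 5 lowest Crabp1, Bgn, Rasgrf1, Igfbp3 and Slc14a1, at -15.64 to -10.26. Gm15564 had 89.5 and 154.8 CPM in J2 and 8.82 and 0.231 CPM in total RNA, so its value came from total RNA. Igfbp3, which binds insulin-like growth factors, had 18.1 and 2.48 CPM in J2 and 0.118 and 155 CPM in total RNA. Across the 14007 genes the J2 and total RNA changes had a Spearman correlation of 0.0993, while the J2 changes of the pair with ADAR1i-124 present and the total RNA changes had 0.725. Genes are not independent replicates, and all points of a pair share 2 libraries.

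The mitosis genes were nearly flat in J2 and far lower in total RNA. All 25 lay between -0.53 and 0.83 in J2, and all 25 were at least 4-fold lower in total RNA, with medians of 0.13 and -2.77. Top2a, the topoisomerase of mitotic chromosomes, had 160.9 and 238 CPM in J2 and 695.2 and 116 CPM in total RNA. In J2 of ADAR1i-124 it had 749.4 CPM and in IgG 592.2 CPM. Their J2 change thus exceeded abundance by a median of 3.01, while the change with ADAR1i-124 present was -2.26 and that against IgG -1.87. Replication histone genes had medians of -0.15 in J2 and -0.97 in total RNA over 47 genes, and of -0.90 with ADAR1i-124 present and -1.28 against IgG.

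**Figure D5:**
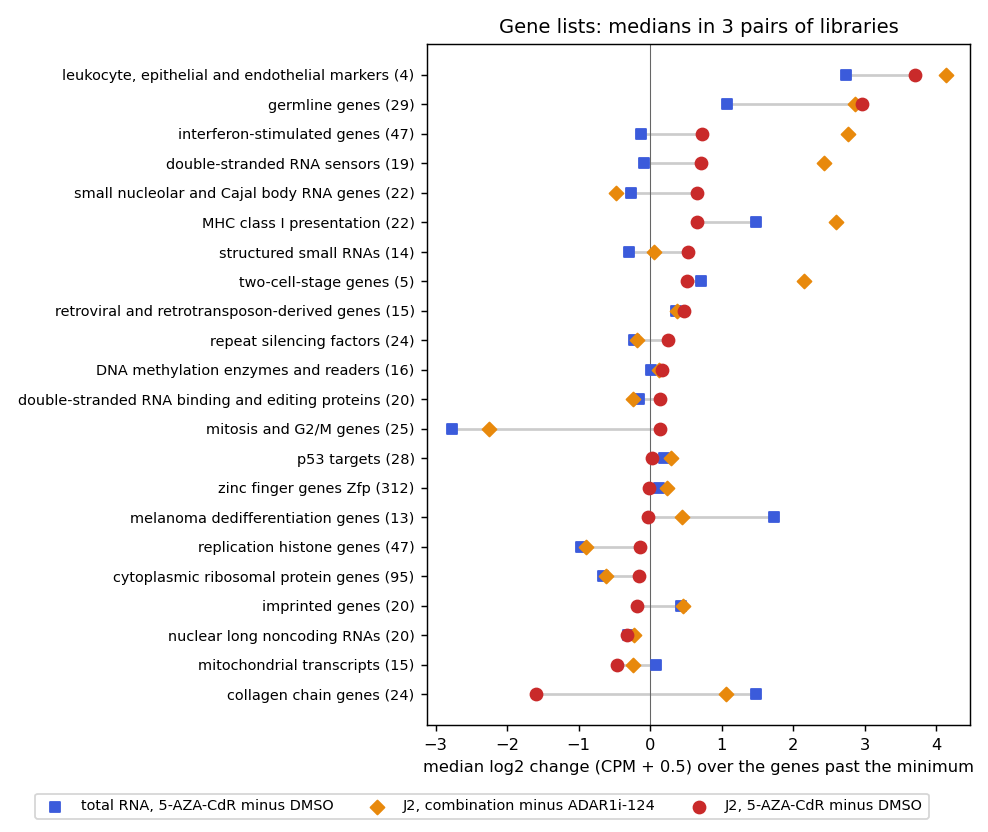
Median log2 change of each gene list over its genes past the minimum (number in brackets) in J2 (circles), total RNA (squares) and the J2 pair with ADAR1i-124 present (diamonds). Germline genes and markers of other cell types lie highest in J2, where 19 of the 29 and 2 of the 4 passed only through the treated library, mitosis genes lie near 0 in J2 but at -2.77 in total RNA, and collagen genes lie at -1.59 in J2 and 1.48 in total RNA.

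Mitochondrial transcripts, which pair into double strands because both strands of the genome are transcribed, had a median change of -0.47 in J2 and 0.09 in total RNA. With ADAR1i-124 present it was -0.24, and against IgG -0.03. All 15 passed, 12 lay below 0, as did 6441 of all 14007 genes, and none was past 2-fold. mt-Cytb, encoding cytochrome b, had 1555 and 835.5 CPM in J2 and 1770 and 1800 CPM in total RNA. mt-Nd6, the protein gene of the light strand, had 337.3 and 486.6 CPM in J2 and 171 and 532.5 CPM in total RNA. mt-Rnr2, the large ribosomal RNA, took 43150 and 42867 CPM in J2 and 39231 CPM in IgG. Gm42418, a locus that overlaps ribosomal RNA sequence, took 18.9% of J2 counts with DMSO and 17.4% with 5-AZA-CdR, and 14.2% in IgG.

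The median structured small RNA was above DMSO but not above IgG. Of 14 that passed, 4 of them with less than 1 CPM with DMSO, 12 lay above 0 and 5 were at least 2-fold higher (7566 of all 14007 genes, and 8.61%), with a median of 0.53 in J2 and -0.30 in total RNA. Rn7s1 and Rn7s2, genes of the 7SL RNA of the signal recognition particle with near-identical copies, had 16.99 and 47.8 CPM, and 28.2 and 75.7 CPM, in J2. Small nucleolar and Cajal body RNAs had a median of 0.66 over the 22 of 147 that passed, and Scarna2 had 14.2 and 47.2 CPM. Against IgG these medians were -0.05 and -0.25, and IgG held 56.97 CPM of Rn7s1 and 33.7 CPM of Scarna2. Neat1, the scaffold RNA of paraspeckles, had 2410 and 652.3 CPM in J2 and 1007 and 2518 CPM in total RNA, a change of -1.88 and 1.32. The direction in J2 was the opposite with the other references, 0.84 with ADAR1i-124 present and 1.35 against IgG, and with Z22 the change was 2.19. Of 20 nuclear long noncoding RNAs, 4 were at least 2-fold lower and none higher (6% and 8.61% of all genes), with a median of -0.32 in J2, -0.23 with ADAR1i-124 present and 0.10 against IgG.

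The hosts of hyper-edited repeats were within 2-fold. Wdr76 had 13.1 and 19.8 CPM in J2, Iws1 134 and 88.3 CPM, and Gnl3l 96.1 and 93.1 CPM. Genes whose exons overlap an exon of a gene on the other strand, and could pair with it, had a median J2 change of 0.10 over 2030 genes, against 0.05 over 11977 without such overlap. Their median J2 change beyond total RNA was 0.13 and 0.00. At least 4-fold higher in J2 were 1.33% of the former and 3.31% of the latter. Zinc finger genes (312) and p53 targets (28) had medians of -0.01 and 0.03, and cytoplasmic ribosomal protein genes (95) of -0.16.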

How the data were processed

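The authors mapped paired reads of ribosome-depleted libraries to the mouse genome (GRCm38, mm10) with STAR in snakePipes and deposited a single table of unnormalized read counts by gene. The counting tool, its strand setting and its treatment of reads from repeated sequence are not given in the sources used here. Groups were taken from the sample labels. Gene identifiers were matched to GENCODE (54495 of 54532), and where genes had a symbol in common, it went to the gene of highest count.

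Counts were divided by the column sum, 0.5 CPM was added before log2, and genes averaging 1 CPM or more in the J2 pair were kept. No test was run, as each condition has 1 library. Intervals of ratios are exact binomial (Clopper-Pearson) at 95%, and 3 counts was the floor. The text names the 10 highest and 10 lowest J2 changes with a mean of at least 10 CPM, the 5 highest and 5 lowest differences from total RNA, up to 4 genes of each list with the largest change, and a few genes set by name. The members and lists were chosen with earlier results of these data known. The satellite-type, collagen and Y-linked genes and the genome windows were chosen after seeing the values, and Trp53cor1, misplaced in the retroviral list, was then removed from it. Total depth ranged from 8167960 to 34571822 counts over the libraries compared. The combination library of total RNA (1245894 counts) was not used. The fold calculation was tested on simulated data. Alternatives were scaling by edgeR 4.0.16 (TMM) and DESeq2 1.42.0 in R 4.3.3, other pseudocounts and minima, and IgG as control. Python 3.11.15 with pandas 2.3.3, numpy 2.4.6 and scipy 1.17.1 did the rest, and matplotlib 3.10.9 drew the plots.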

Additional observations from a re-analysis of the deposited data

Results flagged for a closer look

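The following genes, among those named by the rule, were past 2-fold in opposite directions in J2 and in total RNA, 5-AZA-CdR against DMSO. The difference between the pairs was not tested, since each condition has 1 library. In 16 of them J2 was lower and total RNA higher. The J2 change minus the total RNA change, on the log2 scale, was -15.64 for Crabp1, -14.60 for Bgn, -11.14 for Rasgrf1, -10.62 for Igfbp3, -10.26 for Slc14a1 and -9.96 for Tgfbi. It was -9.54 for Grb10, -8.73 for Aqp1, -8.47 for Col4a1, -8.41 for Col1a2, -7.13 for Ddx3y and -6.77 for Wnt5a. It was -5.49 for Timp3, -4.82 for Cd68, -3.58 for Peg3 and -3.21 for Neat1. In the 7SL genes Rn7s1 and Rn7s6, J2 was higher and total RNA lower, with differences of 3.12 and 4.30. Col6a3, Kdm5d, Uty and Uba1y, named after their values were seen, were also lower in J2 and higher in total RNA, with differences of -6.79, -7.28, -7.15 and -7.07.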

How the results depend on the processing

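No paired analysis was possible because the labels give no replicate numbers and each condition has 1 library. The 3 scalings (TMM, DESeq2 size factors, and column sums without the 20 genes of highest share), the absence of a minimum and the restriction to protein-coding genes kept each count within 1.5 times and the all-gene median within 0.1. Among 126 named genes and 50 list medians, no value of 2-fold or more changed sign under the scalings and pseudocounts. With a pseudocount of 0.1 CPM, 219 genes instead of 136 were at least 4-fold lower in J2. With a pseudocount of 2 CPM, 195 were at least 4-fold higher and 67 lower in J2, 480 at least 2-fold lower, 411 at least 4-fold higher in total RNA, 360 at least 4-fold below total RNA, and 344 higher and 72 lower with ADAR1i-124 present. With a minimum of 10 CPM, fewer genes were counted: 113 higher and 55 lower at 4-fold in J2, 465 and 326 at 2-fold, 248 and 162 in total RNA, 222 and 203 beyond total RNA, and 250 higher with ADAR1i-124 present. With IgG in place of J2 of DMSO, a choice made after seeing the data, 565 genes were at least 4-fold higher and 85 lower, and the collagen median was 0.46 instead of -1.59. The sign also differed for medians under 2-fold: small nucleolar RNAs -0.25, structured small RNAs -0.05, mitosis genes -1.87, repeat silencing factors -0.18, nuclear long noncoding RNAs 0.10, imprinted genes 0.07, double-stranded RNA binding and editing proteins -0.08, dedifferentiation genes 0.38 and zinc finger genes 0.17. The 20 highest and lowest genes kept their sign. Low counts limit single genes: below about 1 CPM in a J2 library, a value rests on under 15 counts.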
